A study of Mus musculus with 3 samples.

Results

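The IL-2 and IL-15 receptor pathway was examined here as 8 genes, namely the receptor chains Il2rb, Il2ra and Il15ra, the cytokine Il15, the kinases Jak1 and Jak3, and the transcription factors Stat5a and Stat5b. Each gene was found by its symbol among 22350 protein-coding genes of an annotation of the mouse mm9 genome, and its body with 20 kb on either side is called its window. The 8 windows held 26 of the 15524 Runx3 peaks and 37 of the 49902 H3K4me1 regions of the study. Both lists came from ChIP-seq (sequencing of DNA that is precipitated with a protein) of splenic natural killer cells (NKC) of ICR mice, used resting, which means freshly isolated and without added cytokine. There were 3 samples with 1 per antibody, namely an in-house polyclonal antibody to the transcription factor Runx3, a monoclonal antibody to H3K4me1 (histone H3 with 1 methyl group on lysine 4) and non-immune rabbit serum (NIS), the control against which peaks were called. Each used 40000000 cells fixed in 1% formaldehyde, DNA fragments of about 300 bp and 40 bp reads. All cells came from mice for which the labels give no genetic change and no age. The labels name NKp46 as the marker of the final sort, whereas the methods of the study name DX5, and the lists do not show which was used.

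Each antibody had a single list of coordinates without scores. No spread between replicates could therefore be given, no test was made, and the depth behind each region is unknown. Intervals below are exact binomial 95% intervals over peaks, which take peaks as independent, and they cover counting error only. As a check of the cell type, the windows of the 7 NKC marker genes (Ncr1, Klrb1c, Klrk1, Klrd1, Eomes, Tbx21 and Prf1) were covered by H3K4me1 over 29.8 to 94.8% of their bases, with a median of 70.2%. The median was 17.9% for 6 T cell markers, with a range from 0% at Cd8a and Cd8b1 to 43.4% at Cd3g, which overlapped that of the NKC markers. It was 7.24% for 5 B cell markers (0 to 28.2%) and 2.48% for 4 myeloid markers (0 to 20.5%). A Runx3 peak lay in the windows of 7 of the 7 NKC markers, 3 of the 6 T cell, 3 of the 5 B cell and 2 of the 4 myeloid markers, against 51.0% of all protein-coding genes. These are chromatin values and not levels of RNA.

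IL-2 and IL-15 bind receptors that share the β chain, encoded by Il2rb, and the common γ chain, and each cytokine has an α chain of its own. Ligand binding activates Jak1, which sits on the β chain, and Jak3, which sits on the γ chain. These kinases phosphorylate Stat5a and Stat5b, which then enter the nucleus and bind DNA. IL-15 keeps NKC alive and both cytokines make them proliferate. Runx3 is a factor of the RUNX family, highly expressed in NKC, and H3K4me1 marks enhancers and the borders of promoters in use.

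The DNA under the Runx3 peak closest to the start of each gene is shown first. Peaks were assigned to genes by distance alone, which does not show that they act on them. All sequences are the plus strand of mm9, and capitals mark matches to the RUNX consensus, searched on both strands in the form TGTGGT (reverse complement ACCACA), the form TGTGGC (reverse complement GCCACA), the form TGCGGT (reverse complement ACCGCA) and the form TGCGGC (reverse complement GCCGCA). For Il2rb and Jak3 the central 300 bp are given.
Il2rb, 206 bp upstream of the start, chr15:78325553-78325852: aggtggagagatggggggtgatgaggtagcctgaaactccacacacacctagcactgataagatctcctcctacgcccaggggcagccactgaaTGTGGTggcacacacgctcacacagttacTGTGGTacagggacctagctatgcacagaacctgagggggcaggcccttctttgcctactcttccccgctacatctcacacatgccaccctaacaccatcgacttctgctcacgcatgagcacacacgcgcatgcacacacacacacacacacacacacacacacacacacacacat
Jak3, 7895 bp upstream of the start, chr8:74192151-74192450: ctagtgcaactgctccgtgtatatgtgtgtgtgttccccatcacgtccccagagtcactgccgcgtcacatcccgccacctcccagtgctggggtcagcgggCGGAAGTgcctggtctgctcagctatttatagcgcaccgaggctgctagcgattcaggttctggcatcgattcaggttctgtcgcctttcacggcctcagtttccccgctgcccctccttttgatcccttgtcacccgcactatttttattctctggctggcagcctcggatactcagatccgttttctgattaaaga
The Il2rb sequence held the TGTGGT form at 2 places that begin 29 bp apart. In the Jak3 sequence, which held no RUNX match, capitals mark instead a match to the ETS consensus CGGAAGT. The closest peaks of Il2ra, Il15ra, Jak1 and Stat5a lay over first exons, and for these only a site of at most 30 bp is printed.
Il2ra, peak midpoint 67 bp inside the gene, chr2:11564336-11564365: gtttgaaaaattACCGCAaaccatattgtc
Il15ra, peak midpoint 506 bp inside the gene, chr2:11627471-11627500: ggccatggcctcGCCGCAgctccggggcta
Stat5a, peak midpoint 1157 bp inside the gene, chr11:100721855-100721884: cctggagcgacaGCCGCAggcgctccgcag
Jak1, peak midpoint 272 bp inside the gene, chr4:100937637-100937665: ggacactcaccACTTCCGtgtgcgccggg
The RUNX sites were TGCGGT at Il2ra and TGCGGC at Il15ra and Stat5a. The Stat5a peak was also the one closest to the start of Stat5b, at 9784 bp. The capitals at Jak1 are an ETS match, since the central 300 bp of that peak held 0 RUNX matches, although its whole width held 6. Its central 300 bp were 75% G or C with 37 CpG dinucleotides. Il15 had no peak to show.

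Central sequences of 3 peaks inside genes are added for comparison. The first is the widest peak of all windows, in intron 8 of Jak1, and the others were picked after their values were seen, the Jak1 intron 4 peak for having the most RUNX matches in its central 300 bp and the Stat5b intron 1 peak for having 2 matches of the TGTGGT form.
Jak1 intron 8, chr4:100848387-100848686: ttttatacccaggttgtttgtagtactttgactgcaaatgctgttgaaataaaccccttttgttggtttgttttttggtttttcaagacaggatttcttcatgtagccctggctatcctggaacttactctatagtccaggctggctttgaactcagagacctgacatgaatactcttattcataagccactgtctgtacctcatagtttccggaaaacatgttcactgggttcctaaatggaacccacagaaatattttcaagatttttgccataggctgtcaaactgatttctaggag
Jak1 intron 4, chr4:100860067-100860366: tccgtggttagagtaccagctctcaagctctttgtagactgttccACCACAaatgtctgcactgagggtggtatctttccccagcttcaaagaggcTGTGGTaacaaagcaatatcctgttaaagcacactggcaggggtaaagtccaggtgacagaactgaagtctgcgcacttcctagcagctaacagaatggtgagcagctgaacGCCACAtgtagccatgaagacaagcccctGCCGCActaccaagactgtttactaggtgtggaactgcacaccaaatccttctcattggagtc
Stat5b intron 1, chr11:100685245-100685544: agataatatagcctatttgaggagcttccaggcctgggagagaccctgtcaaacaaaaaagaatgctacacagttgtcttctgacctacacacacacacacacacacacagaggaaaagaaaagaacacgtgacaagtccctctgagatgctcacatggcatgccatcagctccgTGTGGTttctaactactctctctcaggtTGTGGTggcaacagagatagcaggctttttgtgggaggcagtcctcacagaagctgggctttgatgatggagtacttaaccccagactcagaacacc
The Jak1 intron 8 centre held 0 RUNX matches and the intron 4 centre held 4, of which 2 were TGTGGT in either orientation. In Stat5b the pair of TGTGGT matches began 28 bp apart. Other peaks of the windows also held 2 TGTGGT matches in their centre, and spacings were not compared across them. A match is a string of letters and does not show that the site was bound.

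At least 1 Runx3 peak lay in the windows of 7 of the 8 genes, against 51.0% of all protein-coding genes, and at least 1 H3K4me1 region lay in all 8, against 74.0%. The median window was 79.6 kb for the 8 genes and 55.4 kb over all genes, and a longer window holds a peak or region more easily. With only peaks wider than the median of the list (825 bp), 4 of the 8 genes had one (Il2rb, Jak1, Jak3 and Stat5b), against 35.1% of all genes. Counting all peaks, Jak1 had 8 peaks, Il2rb 7, Stat5b 5, Il2ra 4, and Il15ra, Jak3 and Stat5a had 2 each. Il15 had 0. Windows differ in length from 54.3 kb at Jak3 to 152.9 kb at Jak1, so the number per 100 kb of window was also used. By that measure Il2rb came first with 12.8 peaks per 100 kb, and the remaining 6 with a peak lay between 2.91 (Il15ra) and 5.23 (Jak1). The median of the 8 was 4.05 per 100 kb and that of all genes was 0.459. A density as high as that of Il2rb or higher was found at 0.425% of all genes, and one as high as that of Jak1 or higher at 8.0% of them.

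**Figure D1:**
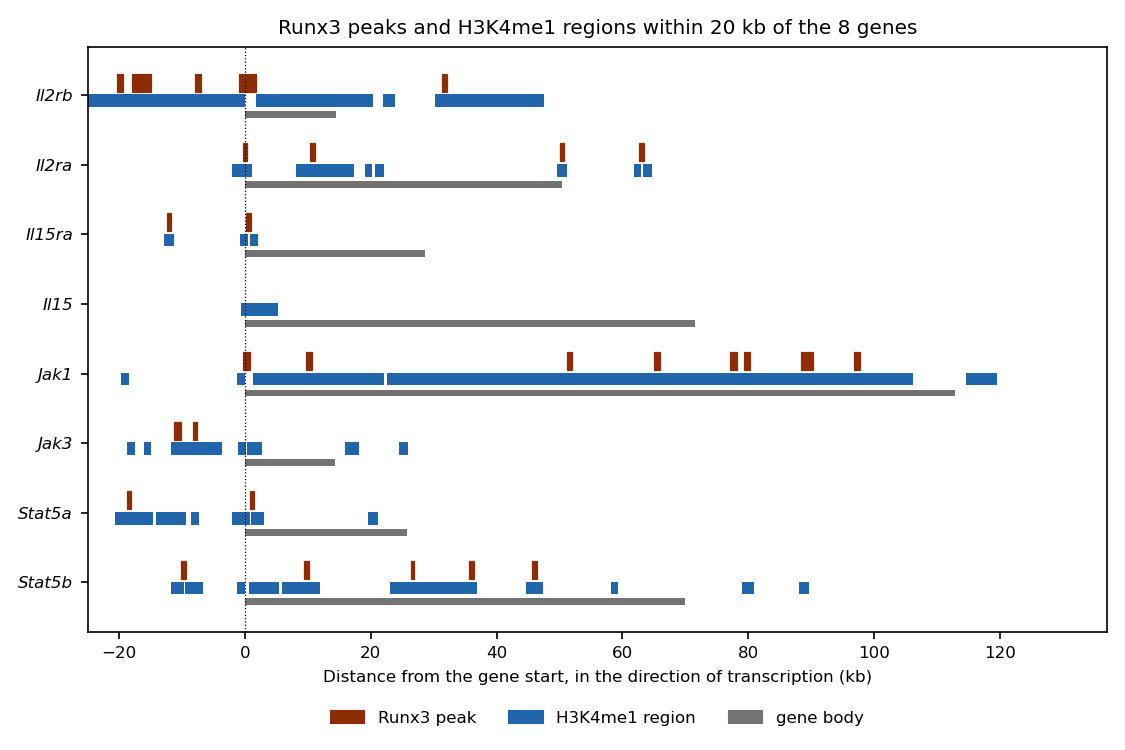
Runx3 peaks (brown), H3K4me1 regions (blue) and gene bodies (grey) in the windows of the 8 genes, with distance from the gene start in kb on the x axis, in the direction of transcription; regions are drawn whole where they run past a window, and 1 at Il2rb runs beyond the left edge of the plot. Il2rb held 7 peaks in a 54.5 kb window and Jak1 8 peaks in its gene body, whereas Il15 held none.

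The windows of neighbouring genes overlap. Il2ra and Il15ra lie 12095 bp apart on chromosome 2 and shared 2 peaks, and Stat5b and Stat5a lie 8626 bp apart on chromosome 11, with their starts next to each other and transcription running apart, and shared 2 peaks. Joined, the windows made 6 stretches of 649 kb in all, with 26 peaks (4.01 per 100 kb) and H3K4me1 over 239 kb, or 36.8%. The joined Stat5 stretch held 5 peaks in 144.4 kb and the joined Il2ra and Il15ra stretch 4 peaks in 131.2 kb. Counts of these neighbours are thus not independent of each other.

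The share of the window covered by H3K4me1 was 82.2% at Il2rb and 73.2% at Jak1, and between 21.3 and 34.6% at Stat5b, Jak3, Stat5a and Il2ra in that order. It was 6.11% at Il15ra and 5.14% at Il15. The median of the 8 genes was 29.8% and that of all genes 7.38%. A cover as high as at Il2rb or higher was found at 0.0626% of all genes and as high as at Jak1 or higher at 0.148%, whereas 54.4% of genes reached that of Il15ra and 58.0% that of Il15. Il2rb and Jak1 thus stood apart from the rest in cover, and only Il2rb stood apart in peak density. The plot of density against cover shows both measures for all genes.

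**Figure D2:**
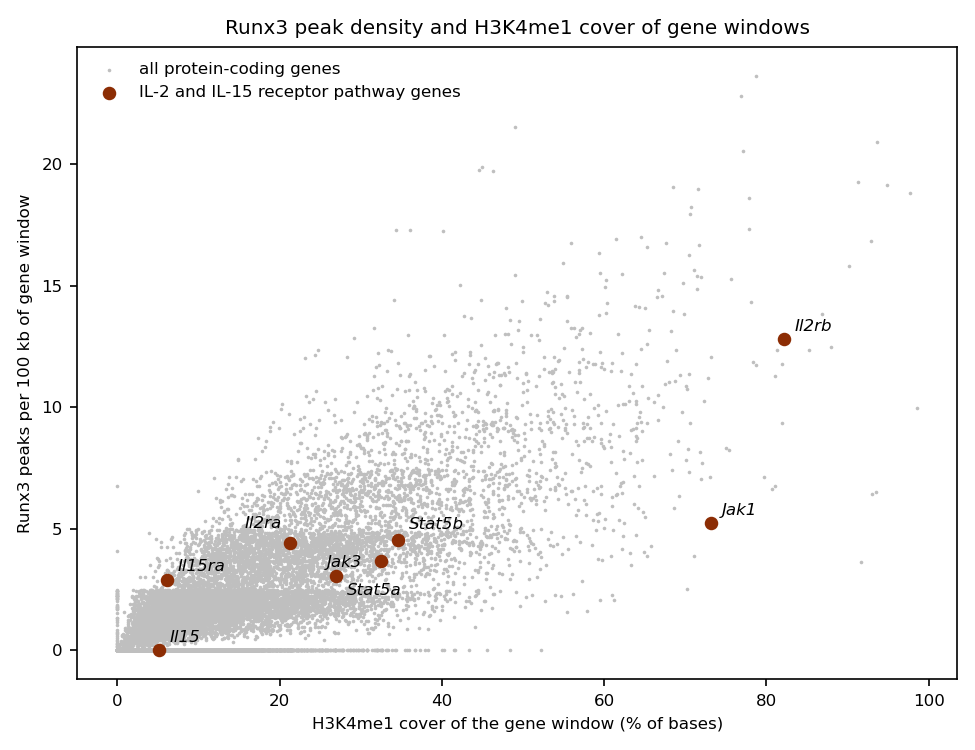
Runx3 peaks per 100 kb of gene window (y axis) against the percent of the window covered by H3K4me1 regions (x axis), with 1 point per protein-coding gene in grey and the 8 pathway genes in brown. Il2rb lies at 82.2% cover and 12.8 peaks per 100 kb, Jak1 at 73.2% and 5.23, and Il15 at 5.14% and 0.

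Il2rb, on chromosome 15 from 78310983 to 78325496 on the minus strand (ENSMUSG00000068227.2), encodes the β chain through which both cytokines signal. Of its 7 peaks, 5 lay upstream of the gene, 1 inside and 1 downstream. The upstream peaks had their midpoints at 206, 7443, 15680, 17237 and 19889 bp before the start. They did not lie evenly, as the midpoints at 15680 and 17237 bp were only 1557 bp apart. The peak inside was centred 1292 bp after the start, in intron 1 and 18 bp from another annotated start of Il2rb. The downstream peak, 31764 bp from the start, lay in intron 2 of Tmprss6, which encodes a membrane serine protease. The last 2 upstream peaks were nearer to a start of C1qtnf6 than to one of Il2rb, at 15024 and 12372 bp.

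The window of Il2rb touched 5 H3K4me1 regions. The widest was 25646 bp long, ran from 12.4 to 38.0 kb upstream and thus beyond the window, and held 7 Runx3 peaks over its whole length. Another of 12308 bp reached from there to 2 bp before the start, and one of 18675 bp began 1728 bp after it. The gene body was covered over 88.1% of its length. The peaks of this gene were wide, with 6 of 7 above the list's median width of 825 bp and the widest, 15680 bp upstream, at 1599 bp. With 50 kb on either side the count rose to 13 peaks, and with 5 kb it was 2.

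Il2ra, on chromosome 2 from 11564419 to 11614818 on the plus strand (ENSMUSG00000026770.4), encodes the α chain that raises the affinity for IL-2. Its 4 peaks were centred 67 bp after the start in an untranslated part of exon 1, 10813 bp after it in intron 1, and 50441 and 63001 bp after it. The last 2 had their midpoints beyond the end of the gene and were shared with Il15ra. The start lay inside an H3K4me1 region of 3157 bp that also covered the whole first peak. A region of 9371 bp covered the intron 1 peak, and no other region of the window reached that width. All 4 peaks were narrower than the median of the list, at 621 to 804 bp.

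Il15ra, on chromosome 2 from 11626914 to 11655613 on the plus strand (ENSMUSG00000023206.9), encodes the α chain that presents IL-15 to neighbouring cells. It had 1 peak centred 506 bp after the start, with its midpoint in an untranslated part of exon 1 and 16 bp from another of its 16 annotated starts. The other peak had its midpoint between the genes, 12054 bp upstream of Il15ra and just past the end of Il2ra. It overlapped the last bases of Il2ra and lay inside a region of 1614 bp. This was the widest of the 3 H3K4me1 regions of the window, and they covered 4.2 kb in all. Il15ra thus had marked and occupied DNA at its start with little H3K4me1 elsewhere, since 6.52% of its gene body was covered.

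Il15, on chromosome 8 from 84855536 to 84927121 on the minus strand (ENSMUSG00000031712.7), encodes the cytokine itself, which is mostly made by dendritic cells, macrophages and stromal cells. It was the single gene of the 8 without a Runx3 peak, also with 5 kb or 50 kb on either side. By counting error alone, a count of 0 allows up to 3 peaks, or 2.69 per 100 kb of its 111.6 kb window. This bound does not separate Il15 from Il15ra, whose 2.91 per 100 kb rests on 2 peaks. Il15 was marked nevertheless, with 1 H3K4me1 region of 5734 bp from 540 bp before to 5193 bp after its start. By width this region ranked 3216 of 49902. The rest of the gene held no region.

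Jak1, on chromosome 4 from 100824972 to 100937887 on the minus strand (ENSMUSG00000028530.8), encodes the kinase bound to the β chain. All 8 peaks lay in the gene body. They were centred 272, 10162, 51618, 65480, 77671, 79787, 89351 and 97290 bp after the start. By midpoint, 4 lay in intron 1, a pair in intron 4, 1 in intron 8 and 1 in intron 11. The intron 4 peak at 79787 bp lay 45 bp from the start of another Jak1 transcript, while the peak at 77671 bp had the small nuclear RNA gene U6 nearest, at 847 bp. A pseudogene, Gm12785, had the nearest start for the peaks at 51618 and 65480 bp, at 3077 and 10785 bp. Apart from the peak at 51618 bp, with 789 bp, all were wider than the median of the list, and the intron 8 peak was the widest of all windows at 1859 bp.

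A single H3K4me1 region of 83618 bp ran from 22.6 to 106 kb after the start of Jak1 and held 6 of the 8 peaks. By width it ranked 2 of 49902. A further region of 20914 bp, ranked 154, held the peak at 10162 bp. Together the regions covered 92.6% of the gene body, the highest share of the 8 genes. By contrast, the 20 kb before the start held only a region of 1266 bp at the start itself and one of 1306 bp that began 18.4 kb upstream.

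Jak3, on chromosome 8 from 74200195 to 74214474 on the plus strand (ENSMUSG00000031805.10), encodes the kinase bound to the common γ chain. Its 2 peaks lay 10699 and 7895 bp upstream, in introns 7 and 3 of the neighbouring gene Unc13a, which encodes a protein of synaptic vesicle priming. Their nearest starts were of Unc13a, at 6050 and 3246 bp. Both lay in 1 H3K4me1 region of 8051 bp, and no peak lay in the body of Jak3 or within 5 kb of it. The second of the pair was the narrowest peak of all windows, at 533 bp. The start of Jak3 lay inside an H3K4me1 region of 1320 bp, and one of 2390 bp began 416 bp after the start. With 50 kb on either side the count was 6.

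Stat5a, on chromosome 11 from 100720665 to 100746483 on the plus strand (ENSMUSG00000004043.8), and Stat5b, from 100642045 to 100712038 on the minus strand (ENSMUSG00000020919.5), encode the factors that carry the signal to the nucleus. Stat5a had a peak with its midpoint in an untranslated part of exon 1, 1157 bp after the gene start and 23 bp from another annotated start. The other peak in its window lay 18419 bp upstream, inside intron 1 of Stat5b. Stat5b had no peak under 1 kb from a start. Its peaks inside the gene were centred 9792, 26644 and 36031 bp after the start in intron 1 and 46029 bp after it in intron 3, and 1 more, 9784 bp upstream, was the exon 1 peak of Stat5a. Stat5b thus had 4 peaks in its body against 1 in that of Stat5a.

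The marks of this pair differed likewise. Stat5b touched 10 H3K4me1 regions of 38.0 kb in all, which covered 40.7% of its body, and the widest of 13719 bp held the 2 peaks at 26644 and 36031 bp. Stat5a touched 6 regions of 17.8 kb, which covered 17.2% of its body. The joined stretch held 11 regions, so most of those of Stat5a were also counted for Stat5b. Beyond 21.2 kb after its start, the end of its last region, the Stat5a window held no mark.

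The next comparison asked which genes had Runx3 at the promoter, taken as a peak midpoint under 1 kb from any annotated start of the gene. This was so for 5 of the 8 genes, against 27.2% of all protein-coding genes. They were the receptor chain genes Il2rb, Il2ra and Il15ra, and Jak1 and Stat5a. Il15, Jak3 and Stat5b had none. Genes with more annotated starts can meet this rule more easily, and the 8 genes had from 1 (Il15) to 16 (Il15ra) starts, with 2 each at Il2rb and Il2ra. Within 2 kb of a start the count was 6, since the Stat5b intron 1 peak at 26644 bp lies 1552 bp from another start of that gene.

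H3K4me1 lay under 1 kb from the start of all 8 genes, against 56.8% of all protein-coding genes. Around active promoters this mark often sits on either side of the start with a gap between. A gap of at most 2 kb between 2 H3K4me1 regions beside the start was found for 6 of the 8 genes, against 30.9% of all genes, by a definition chosen after the values were seen. The gap was 1729 bp wide at Il2rb, 1235 bp at Jak1, 758 bp at Stat5b, 277 bp at Il15ra, 207 bp at Jak3 and 180 bp at Stat5a. Those at Il15ra, Jak3 and Stat5a were shorter than the DNA fragments of about 300 bp. How such short breaks arose was not tested. The start lay in the gap itself at Il2rb and Stat5b and before it at Il15ra, Jak1, Jak3 and Stat5a. At Il2ra and Il15 the start lay inside 1 unbroken region.

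A Runx3 peak overlapped the gap at 4 of these 6 genes (66.7%), against 3808 of 6895 genes with a gap (55.2%). Il2rb had 2 such peaks, 1 at either edge of its gap, and Jak1, Il15ra and Stat5a had 1. The gaps of Jak3 and Stat5b had none. As the plot of the gene starts shows, a gap was present both with and without Runx3 there.

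**Figure D3:**
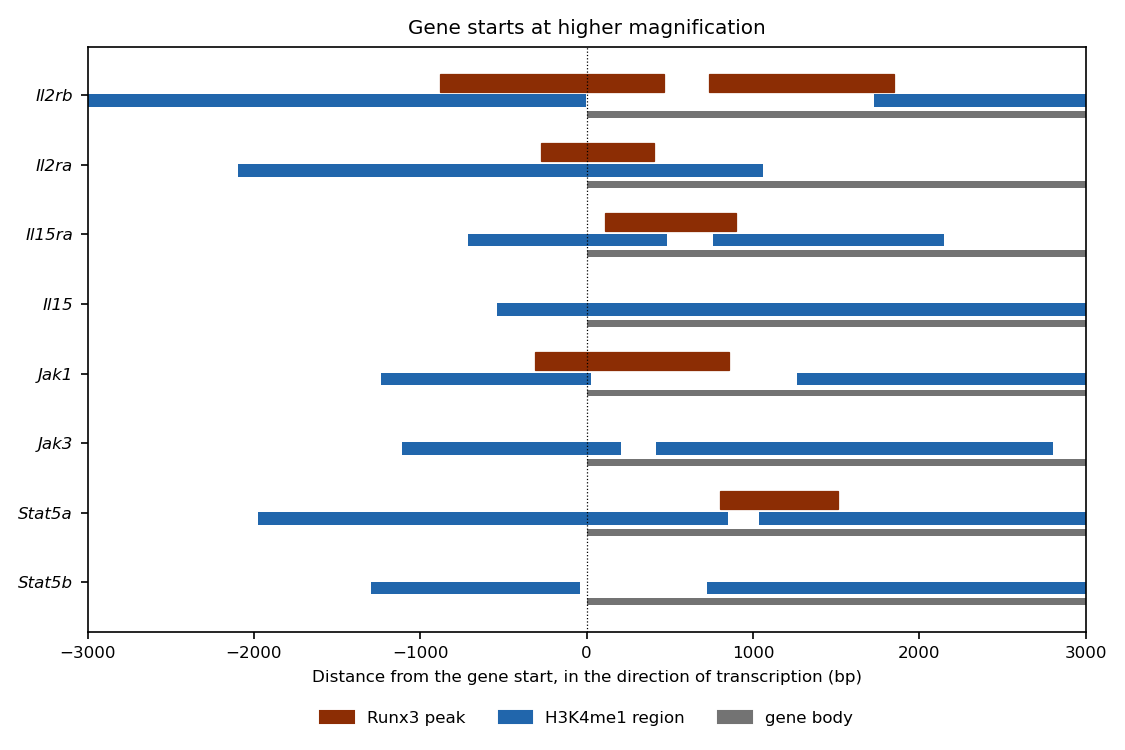
Runx3 peaks (brown), H3K4me1 regions (blue) and gene bodies (grey) within 3 kb of the start of each gene, with distance from the start in bp on the x axis, in the direction of transcription. H3K4me1 was broken beside the start of 6 genes, by 180 bp at Stat5a to 1729 bp at Il2rb, and Runx3 peaks overlapped the gap at Il2rb, Il15ra, Jak1 and Stat5a.

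All 26 peaks of the windows overlapped an H3K4me1 region by 1 bp or more (100%, 95% interval 86.8 to 100%), against 95.7% of the other peaks of the list. The midpoint lay inside a region for 23 of 26 (88.5%, 69.8 to 97.6%), against 83.6%. The 3 outside were the peaks at 1292 bp of Il2rb, 506 bp of Il15ra and 272 bp of Jak1, and each had its midpoint in the gap just described. Their overlap with H3K4me1 was 10.6, 64.8 and 29.2% of their width. From the side of the mark, 18 of the 37 regions held a Runx3 peak and 19 held none. The same share was not counted over all 49902 regions. The 37 regions had a median width of 2037 bp, against 1801 bp over the list.

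Seen from the nearest annotated start of any gene, 8 of the 26 peaks lay under 1 kb away (30.8%, 14.3 to 51.8%), against 39.1% of the other peaks. Between 5 and 50 kb there were 15 (57.7%, 36.9 to 76.6%), against 36.4%, and farther than 50 kb there was none, which allows up to 13.2%, against 8.65%. The windows themselves end 20 kb from each gene. The nearest start belonged to a member for 18 peaks and to another gene for 8. By the annotation, the midpoint lay in an intron for 17 peaks, in an untranslated part of an exon for 3 and between genes for 6. These shares were not counted over the list, and windows drawn around gene bodies favour introns. Of the 26 peaks, 18 had another midpoint within 10 kb, a share not counted over the list. The median distance to the next peak was 8663 bp, against 11760 bp over the list.

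RUNX matches were counted next. Of the 26 peaks, 23 harbored at least 1 match (88.5%, 69.8 to 97.6%), against 93.3% of the other peaks. The 3 without were the downstream peak of Il2rb in Tmprss6, the Jak1 intron 4 peak at 79787 bp and the Jak3 peak at 7895 bp, whose sequence is printed above. There were 69 matches in all, and 12 peaks had 3 or more, a share not counted over the list. The most was 6, found in the Il2rb peak 15680 bp upstream, the Jak1 peaks at 272 and 77671 bp and the Jak3 peak 10699 bp upstream. By form, TGTGGT made up 34 of the matches, TGTGGC 21, TGCGGC 9 and TGCGGT 5.

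In the central 300 bp, 15 of the 26 peaks held a RUNX match (57.7%, 36.9 to 76.6%), against 79.4% of the other peaks. In windows of the same length 5 kb downstream of peaks and free of them, the share was 40.3% over 14828 windows, and for the windows downstream of these peaks it was 7 of 25. Of the 69 matches, 27 lay within 150 bp of the midpoint. The midpoint is the middle of the listed interval and not a summit, and the 26 peaks had a median width of 858 bp, against 825 bp over the list. At Il2rb, 2 of the 7 peaks had a central match, at 206 and 17237 bp upstream, although 6 had a match over their whole width.

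**Figure D4:**
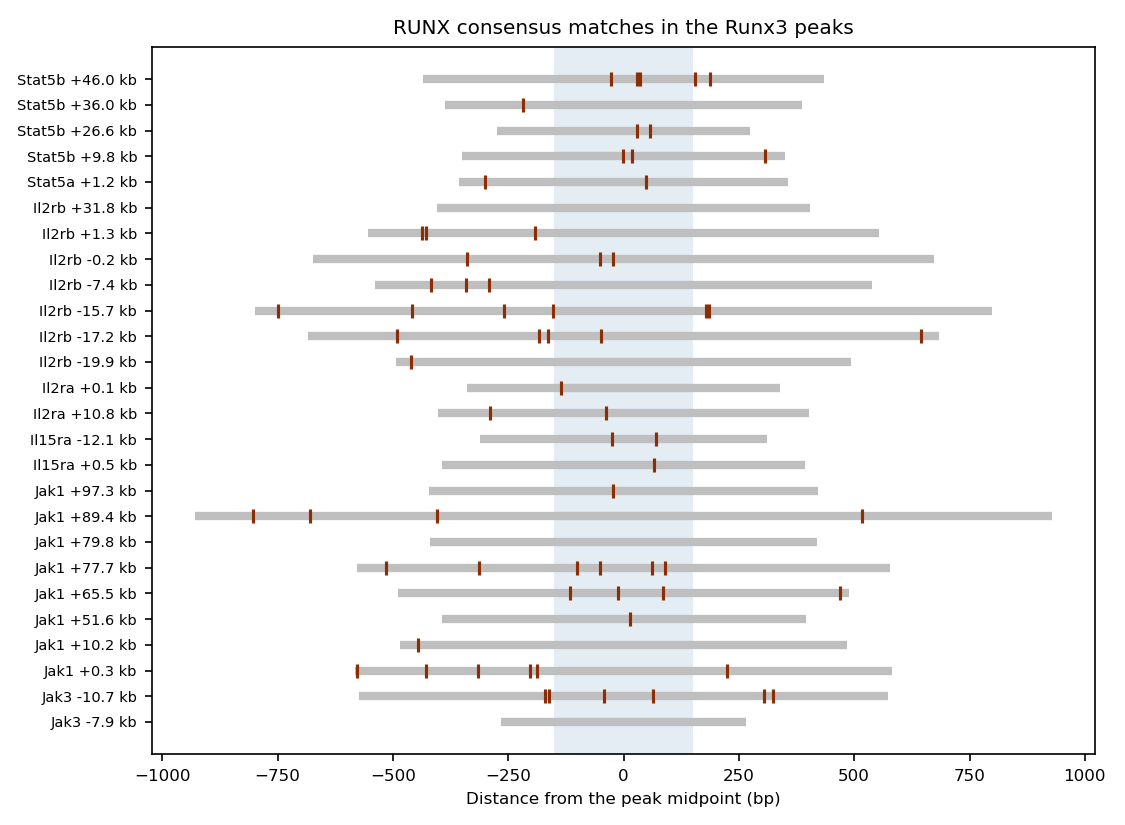
Matches to the RUNX consensus (brown ticks) in the 26 Runx3 peaks (grey bars), with distance from the peak midpoint in bp on the x axis, along the plus strand. Each row is named by a gene and the distance of the midpoint from its start; the shaded band is the central 300 bp, which holds 27 of the 69 matches and at least 1 in 15 of the peaks.

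By form, TGTGGT was found in the centre of 12 peaks (46.2%, against 48.7% of the others and 22.5% of the downstream windows) and TGTGGC in 3 (11.5%, against 31.3 and 18.8%). TGCGGC was found in 4 (15.4%, against 14.7 and 2.70%) and TGCGGT in 1 (3.85%, against 16.0 and 2.43%). The single central TGCGGT was that of Il2ra. Central TGCGGC was found at Il15ra and Stat5a, as printed, and in the Jak1 intron 4 peak at 77671 bp and the Stat5b intron 3 peak.

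Matches for other factors were searched on both strands too. The ETS consensus, AGGAAGT or CGGAAGT, occurred in 18 of the 26 peaks (69.2%, 48.2 to 85.7%), against 41.8% of the other peaks. In the central 300 bp it occurred in 8 (30.8%, 14.3 to 51.8%), against 25.8% of the others and 8.21% of the downstream windows. The intervals take peaks as independent, but 7 of the 26 were at Il2rb and 8 at Jak1. Of these, 6 and 7 were wider than the median of the list. A wider peak has more bases in which to match, and the peaks compared were not matched by width. The STAT sequence TTCNNNGAA, the kind of site that Stat5a and Stat5b themselves bind, occurred in 8 peaks (30.8%, 14.3 to 51.8%), against 22.3%, and in the centre of 1 (3.85%), the Jak1 intron 1 peak at 65480 bp, against 8.28% of the others and 8.59% of the downstream windows.

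AP-1 sequences (TGACTCA or TGAGTCA) occurred in 3 peaks (11.5%, against 16.5%), in the intron 1 peak of Il2rb, the promoter peak of Il15ra and the Jak1 peak at 77671 bp. The T-box sequence GGTGTGA, a site for factors such as T-bet and Eomes, occurred in 5 peaks (19.2%, against 16.7%). None of the RUNX, ETS, AP-1, T-box and STAT matches in these peaks overlapped one of another kind. Factors other than Runx3 were not measured, so these are counts of letters.

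Further genes of the pathway and of related signalling were described from a list of 37. The list leaves out the 8 members and was drawn up with earlier results of these data known. It also holds receptors of other cytokines, such as Il21r, Il7r and Il9r, and factors of other pathways, such as Stat4. Its shares are therefore not those of the IL-2 and IL-15 pathway alone. Of the 37, 32 (86.5%) had at least 1 Runx3 peak in the window, against 51.0% of all protein-coding genes, and 21 (56.8%) had one at a promoter, against 27.2%. Their median was 3 peaks, 4.61 per 100 kb, with H3K4me1 over 36.3% of the window, beside 3 peaks, 4.05 and 29.8% for the 8 members. Over all genes the medians were 1 peak, 0.459 and 7.38%. These values describe the list and were not tested.

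Among cytokine and receptor genes, 3 of 6 had a peak, a share near the 51.0% of all genes. Il2rg, named outside the rule because it encodes the common γ chain that both receptors share, had 1, at its promoter, and a cover of 36.3%. Il21r, the receptor for IL-21, had 7 peaks at 9.98 per 100 kb. Il2, which encodes IL-2, had none and a cover of 5.34%, and Il7r and Il9r, which encode the α chains for IL-7 and IL-9, had none either.

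All 6 kinase and STAT genes had a peak, against 51.0% of all genes, led by Stat4, the factor of IL-12 signalling, with 8. Of the 6 genes of the brakes on the pathway, 4 had a peak (66.7%). Socs1, an inhibitor of JAK kinases, had the highest density of the 37 genes, 14.4 per 100 kb with 6 peaks, whereas Socs2 and Cish, of the same family, had 0. All 9 adaptor, PI3K and Akt genes had a peak, with a median of 1.64 per 100 kb, and the adaptor Grb2 had 8 peaks. Their windows were long, with a median of 105 kb against 55.4 kb over all genes, and a longer window holds a peak more easily.

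All 10 genes listed as targets had a peak, and 9 had one at a promoter, against 51.0 and 27.2% of all genes. Pim1, a survival kinase, had 11.2 peaks per 100 kb, Prf1, which encodes perforin, 10.8, and Mcl1, an inhibitor of apoptosis on which NKC depend, 9.0. Ccnd3, encoding cyclin D3, had the most peaks of the 37 genes, 10, and Bcl2, another inhibitor of apoptosis, had 9. The median density of this group was 7.26 per 100 kb, the highest of the 5 groups, as the plot of density by gene list shows.

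The 8 members were last set beside 2 other lists of 8 genes. All 8 genes of the IL-12, IL-18 and IL-21 receptor pathway had a peak and 6 had one at a promoter. The shares over all genes were 51.0 and 27.2%. The medians of this list were 6.44 per 100 kb and a cover of 47.3%. Of the B cell identity genes, 6 had a peak (75%) and 0 had one at a promoter, with medians of 1.05 per 100 kb and 7.14%. The members lay between these lists in both medians. Their range, from 0 to 12.8 per 100 kb, overlapped that of both, which was 0.988 to 12.0 for the IL-12, IL-18 and IL-21 genes and 0 to 6.69 for the B cell genes, so that the lists were not separated by these values.

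**Figure D5:**
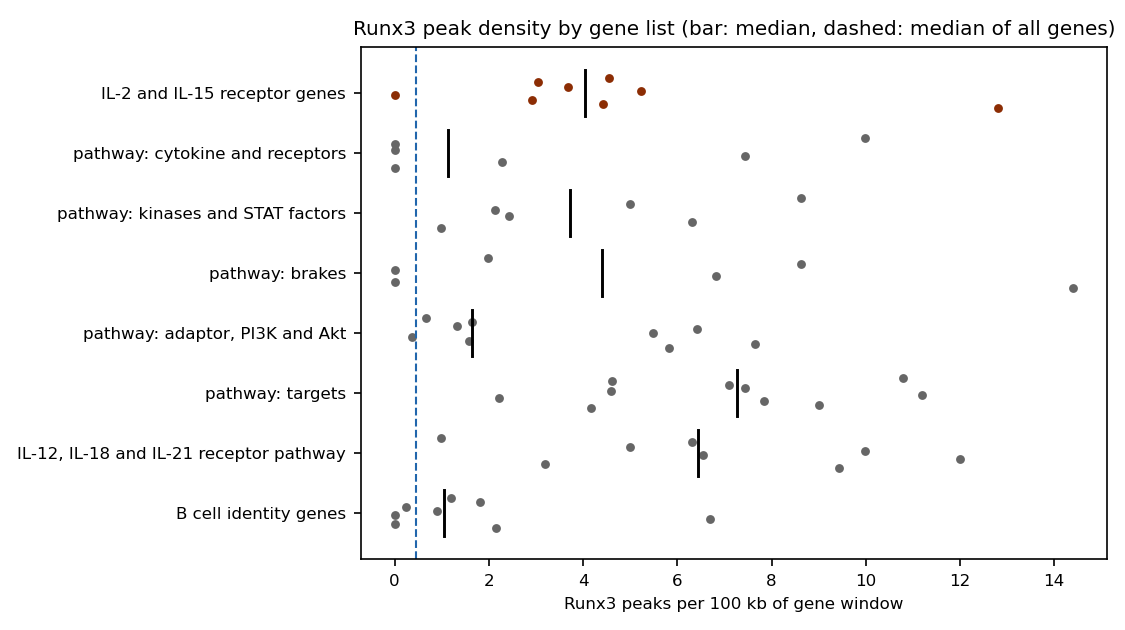
Runx3 peaks per 100 kb of gene window on the x axis, for the 8 members (brown), 5 groups of pathway and related genes and 2 comparison lists. Each gene has 1 point per list, and some genes, such as Il21r and Stat4, are in more than 1 list. Black bars are medians and the dashed line is the median of all protein-coding genes. The medians were 4.05 for the members, 7.26 for targets and 1.05 for B cell identity genes, against 0.459 over all genes.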

How the data were processed

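ChIP-seq was made from resting splenic NKC with 1 sample each for Runx3, H3K4me1 and NIS. Per the labels and the methods of the study, the authors aligned 40 bp reads to the mouse genome with ELAND (CASAVA 1.7 in the submitters' processing notes), kept unique alignments, joined the reads of biological repeats and called regions with MACS 1.4 against NIS, scaling the larger data set to the smaller. The deposited values were start and end coordinates on mm9 without a score, height or p-value, so the authors' threshold could not be varied and depth could not be read. Regions of strongly and weakly enriched DNA counted alike. The series holds 1 sample per antibody, and the lists do not show which repeats were joined. NIS entered only through the authors' calling.

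Regions were read with Python 3.11.15 (numpy 2.4.6, scipy 1.17.1, pysam 0.24.0, matplotlib 3.10.9) and written 1-based. All lay on 20 chromosomes of the mm9 (NCBIM37) sequence by name, and 1 region ran past the end of its chromosome. Genes, starts (86916) and exons came from the GENCODE annotation of that build. A region counted in a window when it shared at least 1 bp with it. Sequences were taken from mm9. Code was tested on simulated data. The members and gene lists were chosen with earlier results of these data known. All members were named. Of the 37 listed genes, the 5 with the highest peak density and each with 0 were named. The 3 with the most peaks (4 with a tie) were named too. Il2rg was named besides, after its values were seen. Alternatives changed the window, the overlap rule, the promoter distance, the width of regions kept and the width searched for RUNX matches. As there were no replicate lists, no test was made.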

Additional observations from a re-analysis of the deposited data

How the results depend on the processing

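No paired analysis was possible because each antibody had a single list and no test was made. The 26 Runx3 peaks became 15 when only peaks wider than the median of the list were kept, while the other changes of window and overlap gave 18 to 38. H3K4me1 covered 42.9% of the joined windows with 5 kb on either side, 32.2% with 50 kb and 33.8% with only regions wider than the median, against 36.8%. The share of peaks with a RUNX match was 57.7% in the central 300 bp and 53.8% in the central 200 bp, against 88.5% over the whole peak. Of 58 alternative values for 14 results, 22 moved, 16 of them counts at a single gene. A count was taken as moved beyond 1.5 times the value reported, a share of peaks outside its interval, and the cover with any change. Il15 stayed at 0 throughout, Jak3 fell to 0 with 5 kb or the gene body alone, and Il2ra, Il15ra and Stat5a fell to 0 with only the wider peaks, so that 4 of 8 genes had a peak. Counting only peaks nearest to a start of a member (18) and taking gene spans from protein-coding transcripts (26) were chosen after seeing the data. Coordinates without depth set the limit here: a weak region below the authors' threshold cannot be told from an absent one.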
